A study of Mus musculus with 13 samples.

Results

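Hox genes encode homeodomain transcription factors that lie in 4 clusters of the mouse genome, Hoxa on chromosome 6, Hoxb on chromosome 11, Hoxc on chromosome 15 and Hoxd on chromosome 2. They were taken here as every measured gene whose symbol is Hoxa, Hoxb, Hoxc or Hoxd followed by a number, which gave 31 of the 15437 genes tested. RefSeq (GRCm38.p6) lists 39 such genes, and all 31 symbols matched it by gene identifier. The other 8 were not analysed here. The members comprised 9 Hoxa, 9 Hoxb, 6 Hoxc and 7 Hoxd genes.

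RNA came from the sciatic nerve, the main nerve of the hind limb, of mice of the BKS strain at 24 weeks of age. The 7 db/+ samples, numbered 101, 103, 104, 105, 106, 404 and 407, carry 1 copy of the db mutation of the leptin receptor gene, so the controls are heterozygous and not wild type. The 6 db/db samples, numbered 110, 111, 112, 409, 410 and 411, are homozygous for it, and such mice become obese and diabetic. No other allele, treatment or agent is named in the labels. The comparison asked which transcripts differ between the genotypes. Each sample was hybridised to 1 array, and the values are log2 expression levels, so that a difference of 1 is a doubling of signal. The labels do not state that each sample came from a separate animal, and a p-value here reflects sample-to-sample spread alone, which may be technical. The number of arrays limits the precision.

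Hox genes are numbered by paralogue group, so that genes with the same number in different clusters descend from a common ancestor. Low-numbered genes are expressed from the hindbrain or neck backwards and high-numbered genes only toward the lumbar, sacral and tail regions, in the order in which they lie along the chromosome. Neural crest derivatives (sensory neurons, satellite glia and Schwann cells), mesenchyme of the limb, and muscle and fat precursors keep a Hox pattern that reflects where along the body they arose, and many adult cells still express it. The sciatic nerve holds axons of lumbar motor and sensory neurons, whose cell bodies and most of whose RNA lie in the spinal cord and dorsal root ganglia, together with Schwann cells, perineurial and endoneurial fibroblasts, vessels and adjoining fat.

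The sequence just upstream of a Hox gene is shown for the members that had 1 RefSeq promoter window and whose means differed by 1 or more on the log2 scale between the sets of db/+ arrays described below. Each is the 250 bases before the RefSeq start, 5′ to 3′, on the plus strand of GRCm38.p6. Hoxb8 is from chr11:96281655-96281904, Hoxd1 from chr2:74762730-74762979 and Hoxd10 from chr2:74691641-74691890. Capitals mark matches on either strand to TGATNNAT, the composite site of Hox proteins with their partner Pbx, to AGGTCA, the core that nuclear receptors such as the retinoic acid receptors bind, or to TATAAA, the TATA box.
Hoxb8: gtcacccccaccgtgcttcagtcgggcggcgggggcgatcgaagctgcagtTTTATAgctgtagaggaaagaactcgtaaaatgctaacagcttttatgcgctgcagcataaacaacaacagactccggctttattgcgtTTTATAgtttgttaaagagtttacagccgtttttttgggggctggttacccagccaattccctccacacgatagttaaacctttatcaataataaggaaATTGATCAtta
Hoxd1: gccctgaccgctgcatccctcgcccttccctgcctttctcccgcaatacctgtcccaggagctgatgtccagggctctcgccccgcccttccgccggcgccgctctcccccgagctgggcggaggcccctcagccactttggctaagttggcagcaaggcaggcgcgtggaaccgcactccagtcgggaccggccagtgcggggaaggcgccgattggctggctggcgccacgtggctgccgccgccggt
Hoxd10: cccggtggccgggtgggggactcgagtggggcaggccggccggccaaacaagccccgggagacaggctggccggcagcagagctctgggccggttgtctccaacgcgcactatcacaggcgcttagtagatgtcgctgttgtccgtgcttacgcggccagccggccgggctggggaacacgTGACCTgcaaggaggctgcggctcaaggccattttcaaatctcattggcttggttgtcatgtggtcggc
In Hoxb8 both copies of TATAAA and the copy of TGATNNAT read on the minus strand (TTTATA and ATTGATCA as printed), and the capitals of Hoxd10 are AGGTCA on the minus strand (TGACCT). The Hoxd1 window held none of these letters, which says only that they are not in this window. The table held 21 windows for 19 of the 31 Hox genes. TGATNNAT was present in 4 of them (Hoxa2, Hoxb1, Hoxb8 and Hoxd11; 19.0% of the Hox windows against 7.68% of all 32851 windows), AGGTCA in 5 (Hoxb4, Hoxc4, Hoxd4, Hoxd8 and Hoxd10; 23.8% against 14.0%) and TATAAA in 3 (Hoxa10, Hoxb8 and Hoxd4; 14.3% against 12.4%). Occurrences of different motifs could overlap each other. The Hox windows held a median of 12 CpG dinucleotides against 6 over all windows, and their median GC content was 58.0% against 52.4%. A match is a description of the letters and not a binding site.

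Array medians lay between 8.63 and 8.71. Of the nerve's own markers, Mbp lay at 12.90 to 13.46 and Pmp22 at 13.45 to 13.98 over all arrays. Others were lower and ranged more widely, such as Mag (6.59 to 9.99) and Gjb1 (5.79 to 8.77). The db/+ arrays were divided by neuronal transcripts: the mean of 17 measured neuron markers was 10.98 to 11.68 in db/+ 101, 103, 104 and 106, 6.89 to 7.49 in db/+ 105, 404 and 407, and lowest in db/db at 6.02 to 6.76. The mean of 7 satellite glia markers was 11.29 to 11.65, 10.04 to 10.21 and 9.71 to 10.36 in the same order, and that of 11 myelin and Schwann cell markers was 10.88 to 11.49, 10.38 to 11.07 and 9.39 to 10.78. Other lists differed the opposite way between the db/+ sets, without overlap. The mean of 13 fibroblast and perineurial markers was 11.50 to 11.76, 12.08 to 12.19 and 11.45 to 11.76 in this order. That of 11 macrophage markers was 11.73 to 11.93, 11.98 to 12.72 and 11.93 to 12.49. The gap between the 3' and 5' actin control probe sets, a measure of how far RNA is shortened, was 0.963 to 1.395, 0.399 to 1.144 and 0.485 to 0.916. The division of the db/+ arrays was known from those neuronal transcripts before the Hox genes were set against it, and the Hox values across it are given as a description with no test. In whole nerve, fewer cells of a type and less RNA per cell cannot be told apart.

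Hoxb genes and part of the Hoxd cluster followed this division, and Hoxa and Hoxc genes did so little or not at all. Of the 31 Hox genes, 8 had a mean at least 1 higher on the log2 scale in db/+ 101, 103, 104 and 106 than in db/+ 105, 404 and 407 (6.41% of all genes were), and 0 had a mean at least 1 lower (2.92% of all genes). All 8 lay in Hoxb (Hoxb3, Hoxb5, Hoxb6, Hoxb8 and Hoxb9) or Hoxd (Hoxd1, Hoxd10 and Hoxd11). In 10 Hox genes every array of the first set was above every array of the second (12.1% of all genes), and these were 7 Hoxb genes (Hoxb2, Hoxb3, Hoxb4, Hoxb5, Hoxb6, Hoxb8 and Hoxb9) and 3 Hoxd genes (Hoxd1, Hoxd8 and Hoxd9). The opposite held for Hoxb13 and Hoxc4 (2 genes, against 21.0% of all genes). The median difference between the sets was 1.38 in Hoxb, 0.99 in Hoxd, 0.16 in Hoxa and -0.23 in Hoxc, beside -0.14 over all genes. The neuron markers were used to make the division, so their difference across it was fixed in advance. Of the satellite glia markers, Fabp7 (mean 12.60 against 7.54), Kcnj10 (9.84 against 6.42) and Ptn (10.01 against 8.37) were higher in the first set. Glul (13.62 against 13.67), Slc1a3 (8.97 against 9.02), Gja1 (12.23 against 12.27) and Apoe (13.11 against 13.51) were not. The part of these cells in the Hox differences was not tested.

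Hoxd1, which is known in mice for a role in the wiring of pain-sensing neurons, had the widest gap of any Hox gene measured. Its level was 9.40, 8.79, 8.30 and 8.62 in db/+ 101, 103, 104 and 106. It was 3.65, 3.80 and 4.02 in db/+ 105, 404 and 407, and ran from 3.01 through a median of 3.83 to 4.25 in db/db. The first 4 arrays stood far above the other db/+ arrays, which lay within the db/db range. The means of the db/+ sets were 8.78 ± 0.46 (SD, n = 4) and 3.82 ± 0.19 (SD, n = 3), a difference of 4.96 on the log2 scale. Both Hoxd1's low levels and those of the dimmest Hox genes lie near the bottom of the value range, where no detection call separates them from background.

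Within Hoxb the gap was greatest at Hoxb5 (2.65) and Hoxb6 (2.24), but it did not change evenly along the cluster. Hoxb4, next to Hoxb5, had a gap of 0.49, below those of Hoxb2 (0.64) and Hoxb3 (1.62). Hoxb5, active in the neural crest that colonises the gut and in the brachial and thoracic trunk, stood at 10.43, 10.24, 9.75 and 10.15 in db/+ 101, 103, 104 and 106. It stood at 6.64, 8.52 and 7.33 in db/+ 105, 404 and 407, and at 5.79 to 7.41 in db/db with a median of 7.07. Db/+ 404 lay between the high arrays and the db/db range, and db/+ 105 and 407 lay within that range. Hoxb6, its neighbour in the cluster, was 7.81, 8.26, 7.57 and 8.46 in the first set. It was 5.80, 5.94 and 5.59 in the second set and 4.61 to 5.24 in db/db, with a median of 5.03. Its 3 groups were stepwise and did not overlap, with db/+ means of 8.02 ± 0.41 (SD, n = 4) and 5.78 ± 0.18 (SD, n = 3) and a db/db mean of 4.9998 ± 0.22 (SD, n = 6).

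Hoxb3, a hindbrain and neck gene, read 9.31, 8.89, 9.48 and 9.71 in db/+ 101, 103, 104 and 106, whereas db/+ 105, 404 and 407 read 7.69, 7.82 and 7.66. Its db/db arrays ran from 7.45 to 8.36 with a median of 7.66, so the second db/+ set lay inside the db/db range. Hoxb8, used in spinal cord and dorsal root ganglia, read 6.25, 6.43, 6.20 and 5.48 in the first set. The second set gave 4.16, 5.35 and 4.63, and db/db gave 4.23 to 5.09 with a median of 4.45. For Hoxb8 the lowest array of the first set (106) was close to the highest of the second (404). Hoxb9, a trunk gene of the thoracic level, read 9.16, 9.09, 9.33 and 9.02 in the first set against 8.06, 7.15 and 7.52 in the second. Its db/db arrays ran from 6.53 to 7.53 with a median of 7.30, and db/+ 105 alone of the second set was above that range. At the ends of the cluster the first set was not higher: the difference between the db/+ sets was -0.04 for Hoxb1 and -0.30 for Hoxb13.

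**Figure D1:**
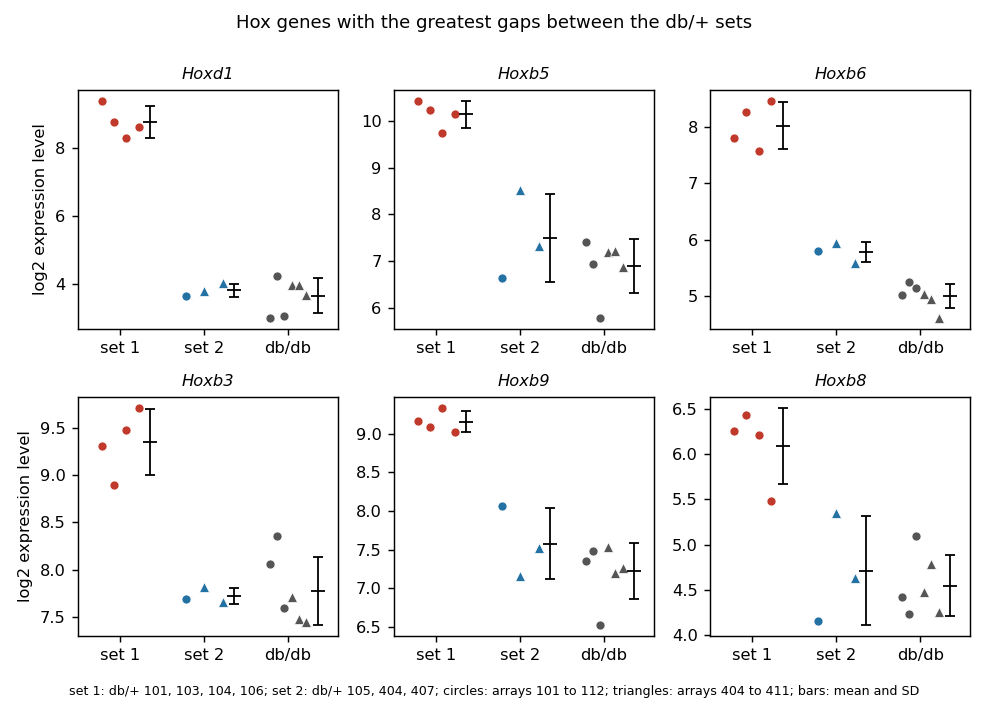
Log2 expression level (vertical axis) on each array of the 6 Hox genes with the greatest gap between the db/+ sets. Columns are db/+ 101, 103, 104 and 106 (red), db/+ 105, 404 and 407 (blue) and db/db (grey); circles are arrays 101 to 112, triangles arrays 404 to 411, and bars give the mean and SD. In Hoxd1 the first set lies at 8.30 or above and all other arrays at 4.25 or below, while in Hoxb6 the second set also lies above db/db.

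The posterior Hoxd genes, which pattern the limb and the lumbar and sacral body, had smaller or less even gaps. Hoxd10, known for its part in lumbar motor neurons of the hind limb, was 10.18, 9.62, 9.78 and 9.25 in db/+ 101, 103, 104 and 106. It was 7.09, 9.34 and 8.82 in db/+ 105, 404 and 407, so only db/+ 105 was low and db/+ 404 overlapped the first set. Hoxd11, a gene of the forearm and lower leg, was 4.79, 4.43, 4.19 and 6.89 in the first set and 3.35, 4.05 and 4.23 in the second. Its gap of 1.20 rested on db/+ 106, which stood well above the other 12 arrays. Hoxd9, active in the proximal limb segments, was 12.39, 12.23, 12.16 and 12.06 against 11.08, 11.66 and 11.91. Hoxd8, which is outside the rule for named genes and was chosen after its values were seen, was 10.27, 10.14, 10.20 and 9.82 against 9.42, 8.81 and 9.11, with db/db at 8.601 to 9.43. Hoxd4 and Hoxd12 did not follow the division, with differences of -0.31 and -0.20.

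**Figure D2:**
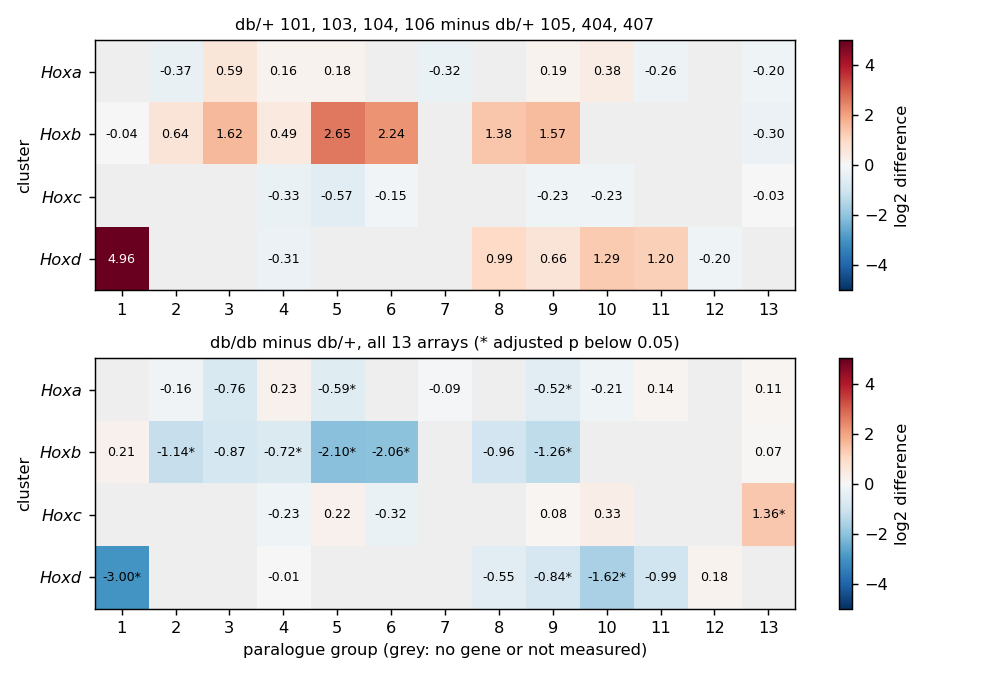
Differences in log2 level for each Hox gene, arranged by cluster (rows) and paralogue number (columns). The upper grid is db/+ 101, 103, 104 and 106 minus db/+ 105, 404 and 407, the lower grid db/db minus all db/+, stars mark an adjusted p below 0.05, and empty cells are genes that do not exist or were not analysed here. Differences of 1 or more in the upper grid lie at Hoxb3, Hoxb5, Hoxb6, Hoxb8, Hoxb9, Hoxd1, Hoxd10 and Hoxd11, and the starred falls below lie in Hoxa, Hoxb and Hoxd, while the starred rise is Hoxc13.

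The genotypes were then compared over all arrays. Between db/db and db/+ nerve, 10 of the 31 Hox genes were lower in db/db (11.7% of all genes were) and 1 was higher (13.4% of all genes were), by limma with Benjamini-Hochberg adjustment over all genes, which holds for every adjusted p given here. The 10 that fell were Hoxa5, Hoxa9, Hoxb2, Hoxb4, Hoxb5, Hoxb6, Hoxb9, Hoxd1, Hoxd9 and Hoxd10, and the gene that rose was Hoxc13. By cluster, 2 of 9 Hoxa, 5 of 9 Hoxb and 3 of 7 Hoxd genes fell, and 0 of 6 Hoxc genes did. The median difference (db/db minus db/+) was -0.32 over the Hox genes and 0.02 over all genes. It was -0.16 in Hoxa, -0.96 in Hoxb, 0.15 in Hoxc and -0.84 in Hoxd. By paralogue number, 2 of 6 genes of groups 1 to 3 fell, 4 of 12 of groups 4 to 8 fell, and of the 13 in groups 9 to 13, 4 fell and 1 rose.

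The comparison rests in large part on the 4 high db/+ arrays. Without db/+ 101, 103, 104 and 106, 1 Hox gene was lower in db/db (Hoxb6; 6.78% of all genes were lower) and 1 was higher (Hoxc13; 6.12%), and the median difference was -0.19 over the Hox genes and -0.05 over all genes. Among arrays 404 to 411 (db/+ n = 2, db/db n = 3), 3 Hox genes were lower (Hoxa3, Hoxb6 and Hoxd10; 4.17% of all genes) and 1 was higher (Hoxc13; 4.93%). These fits have fewer arrays, and a lost call in them does not show that the genes did not differ. In 1 Hox gene, Hoxb6, every db/db array was below every db/+ array (3.51% of all genes), and in 0 was every db/db array above (6.17%).

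Hoxc13 was the only Hox gene to rise, and is known from hair follicles and nails, where it drives keratin genes. The db/+ arrays 101, 103, 104, 105, 106, 404 and 407 read 5.23, 4.79, 4.74, 5.50, 5.09, 5.04 and 4.42. The db/db arrays 110, 111, 112, 409, 410 and 411 read 6.61, 5.37, 6.74, 6.04, 6.66 and 6.56. Of the db/db arrays, 111 lay within the db/+ range, below db/+ 105, and the others lay above every db/+ array. The means were 6.33 ± 0.53 (SD, n = 6) in db/db and 4.97 ± 0.35 (SD, n = 7) in db/+, a difference of 1.36 (SE 0.23, adjusted p = 0.00135). The difference was 1.34 without the 4 high db/+ arrays (adjusted p = 0.0295). It was 1.17 in the lower number series (101 to 112; adjusted p = 0.0447) and 1.68 in the higher (404 to 411; adjusted p = 0.0294). Leaving out each array in turn, the adjusted p stayed at or below 0.00437. The db/+ sets differed by -0.03 in this gene, so it did not share the division. Its mean over all arrays is below 6.29, the 25th percentile of gene means, and the other measured Hoxc genes of groups 9 to 13, Hoxc9 and Hoxc10, had differences of 0.08 and 0.33 and no call.

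Hoxb6 fell by 2.06 over all arrays (SE 0.47, adjusted p = 0.0077), from 7.06 ± 1.24 (SD, n = 7) to 4.9998 ± 0.22 (SD, n = 6). Without the 4 high db/+ arrays it fell by 0.78 (SE 0.15, adjusted p = 0.00957). Each number series on its own gave a lower level in db/db too, with differences of -0.90 for 404 to 411 (adjusted p = 0.0491) and -2.44 for 101 to 112 (adjusted p = 0.0242). The latter series holds all 4 high db/+ arrays, so it is not separate support from the all-array fit. The fall was therefore smaller, but still past the threshold, once the 4 high arrays were absent. With the neuron marker mean as a covariate, its difference was -0.43 (adjusted p = 0.255).

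Of the other Hoxb genes, Hoxb2, which sets identity in the hindbrain, was 6.05, 6.28, 6.80 and 6.47 in db/+ 101, 103, 104 and 106, with 5.54, 5.96 and 5.78 for db/+ 105, 404 and 407. Its db/db arrays ran from 4.43 to 5.72 with a median of 4.98, and 1 of them (111) lay above db/+ 105. Hoxb2 fell by 1.14 (SE 0.23, adjusted p = 0.0041), and its difference was -0.77 without the 4 high arrays (adjusted p = 0.084). Hoxb4, known in hindbrain patterning and in blood stem cells, was 7.14, 7.12, 7.55 and 7.61, then 6.98, 6.83 and 6.78 in the db/+ sets. It was 5.97 to 6.78 in db/db with a median of 6.44, and only db/db 110 reached the lowest db/+ array. Hoxb4 fell by 0.72 (SE 0.16, adjusted p = 0.00684), with a difference of -0.44 without the 4 high arrays (adjusted p = 0.104).

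Hoxb5 and Hoxb9, whose values are given above, fell by 2.10 (SE 0.61, adjusted p = 0.0247) and by 1.26 (SE 0.36, adjusted p = 0.0234). Without the 4 high arrays their differences were -0.59 (adjusted p = 0.417) and -0.36 (adjusted p = 0.394). The Hoxb5 call was lost without db/+ 104 (adjusted p = 0.0503), db/+ 106 (0.0508) or db/db 112 (0.0531), and the Hoxb9 call without db/db 112 (0.0508). In arrays 404 to 411 the difference in Hoxb9 was -0.01, against -1.82 in arrays 101 to 112 (adjusted p = 0.0131). The 4 high db/+ arrays all lie in 101 to 112, so this contrast mixes number series with the db/+ division. Hoxb3 and Hoxb8 did not pass over all arrays, at -0.87 (SE 0.36, adjusted p = 0.0956) and -0.96 (SE 0.35, adjusted p = 0.0604). Both passed without db/+ 105 (adjusted p = 0.0497 and 0.0121) or without db/+ 407 (0.0421 and 0.0302). Without the 4 high arrays their differences were 0.06 and -0.17.

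Hoxd1 had the greatest mean difference between the genotypes of any Hox gene and the least stable call. It fell by 2.996 (SE 1.02, adjusted p = 0.0469), from 6.65 ± 2.67 (SD, n = 7) to 3.66 ± 0.52 (SD, n = 6). The call was kept without db/+ 105, 404 or 407 (adjusted p from 0.0198 to 0.0225) and lost on leaving out each of the other 10 arrays (0.0638 to 0.0914). With the number series as a block the difference was -2.64 (adjusted p = 0.0651), and without the 4 high arrays it was -0.16 (adjusted p = 0.752). With the neuron marker mean as a covariate its sign turned, at 0.68 (adjusted p = 0.0879).

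Hoxd9 and Hoxd10 also fell. In db/db Hoxd9 ran from 10.84 to 11.38 with a median of 11.05, and db/+ 105, at 11.08, was the only db/+ array inside that range. Its mean fell by 0.84 (SE 0.19, adjusted p = 0.00721), with a difference of -0.46 without the 4 high arrays (adjusted p = 0.158). Hoxd10 ran from 6.86 to 8.37 in db/db with a median of 7.57, and again db/+ 105 lay within the db/db range. Its mean fell by 1.62 (SE 0.44, adjusted p = 0.018). The difference was -1.86 in arrays 404 to 411 (adjusted p = 0.0495) and -0.89 without the 4 high arrays (adjusted p = 0.294). Hoxd11 ran from 3.37 to 3.84 in db/db with a median of 3.53 and did not pass, at -0.99 (SE 0.43, adjusted p = 0.106). On leaving out each array in turn it passed only without db/+ 105 (0.0492). Without the 4 high arrays its difference was -0.30 (adjusted p = 0.351). Hoxd8 likewise did not pass, at -0.55 (adjusted p = 0.119). On leaving out each array in turn it passed only without db/+ 404 (0.0334), and without the 4 high arrays its difference was 0.02 (adjusted p = 0.966).

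Both falls in Hoxa came with little division among the db/+ arrays. Hoxa9, a gene of the trunk, proximal limb and blood progenitors, was 7.82, 7.62, 7.29 and 7.83 in db/+ 101, 103, 104 and 106, with 7.56, 7.22 and 7.58 for db/+ 105, 404 and 407. Its db/db arrays ran from 6.90 to 7.24 with a median of 7.02, and the groups overlapped only through db/db 410 and db/+ 404. Hoxa9 fell by 0.52 (SE 0.11, adjusted p = 0.00554). The lower number series gave -0.68 (adjusted p = 0.0176) and the higher -0.26 (adjusted p = 0.328). Without the 4 high arrays its difference was -0.41 (adjusted p = 0.0517), and adding a block for the number series it passed, at -0.40 (adjusted p = 0.0454). Hoxa5, needed for lung and neck development, was 7.80, 8.49, 8.42 and 7.96, then 7.91, 8.35 and 7.69 in the db/+ sets. It was 7.14 to 7.80 in db/db with a median of 7.55, and db/db 111's low of 7.14 and 110's 7.21 lay furthest from db/+. Hoxa5 fell by 0.59 (SE 0.16, adjusted p = 0.0198), with a difference of -0.48 without the 4 high arrays (adjusted p = 0.136).

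**Figure D3:**
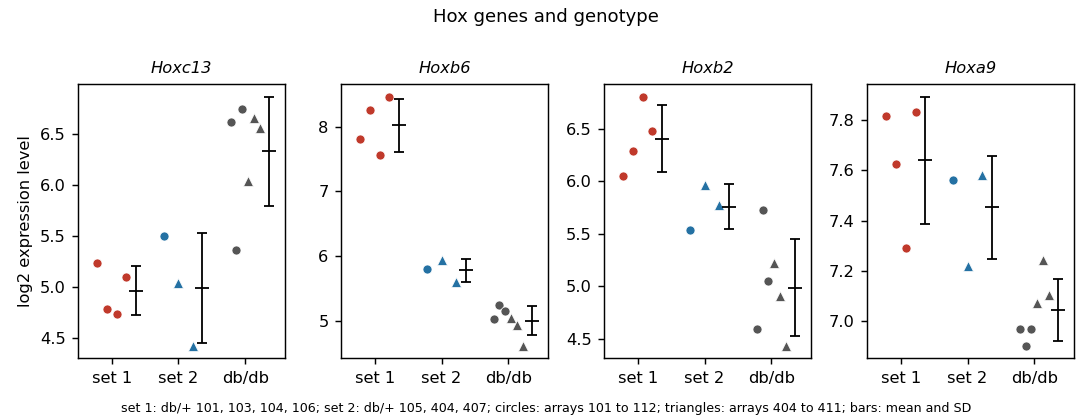
Log2 expression level (vertical axis) on each array of Hoxc13, Hoxb6, Hoxb2 and Hoxa9, in the same columns, colours and symbols as the plot of the db/+ sets, with bars for mean and SD. Hoxc13 is higher in db/db (6.33 against 4.97 over all db/+), and in the other genes db/db is lower, with the mean of the second db/+ set between the means of the other columns.

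The sample numbers fall into a lower (101 to 112) and a higher (404 to 411) series, and what they mark is not stated. Hoxa3, known from the thymus, parathyroid and neck, and Hoxa10, a gene of the lumbar spine, thigh and uterus, differed between the series within db/db. Hoxa3 was 9.15, 8.97 and 9.38 in db/db 110, 111 and 112 but only 7.85, 7.65 and 7.70 in db/db 409, 410 and 411. Db/+ 101, 103, 104, 105 and 106 read 8.76, 9.62, 9.78, 9.02 and 9.72, while db/+ 404 and 407 read 8.97 and 8.63. The db/db arrays of the lower series thus lay within the db/+ range, and those of the higher series below it. Hoxa3 was 1.44 lower in db/db 409 to 411 than in db/db 110 to 112 (difference -1.44, adjusted p = 0.0333). The genotype difference in Hoxa3 was -0.76 over all arrays (SE 0.33, adjusted p = 0.109), -0.21 within the lower series (adjusted p = 0.609) and -1.07 within the higher (adjusted p = 0.0224).

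Hoxa10, which was chosen after its values were seen, was 11.62, 11.77 and 11.80 in db/db 110, 111 and 112 but only 10.89, 10.78 and 10.92 in db/db 409, 410 and 411. In db/+ it was 11.54, 11.66, 11.78, 11.93 and 11.70 in the lower series and 10.92 and 11.01 in the higher series. Its level thus went with the number series in both genotypes, and the db/db difference between the series was -0.87 (adjusted p = 0.0334). The genotype difference was -0.21 (adjusted p = 0.53). By limma, in a comparison added after the values were seen, Hoxa3 and Hoxa10 were the 2 Hox genes lower in db/db 409 to 411 (0.900% of all genes were lower), and 0 were higher (1.50% of all genes). At an unadjusted p below 0.05, 3 Hox genes were lower (10.1% of all genes) and 4 higher (15.4%), which is no more than the share over all genes. The genotype difference itself, tested by limma as an interaction with the series, passed in 0 of the 31 Hox genes and 0 of all genes (smallest adjusted p among Hox genes 0.232). At an unadjusted p below 0.05 it counted 4 Hox genes, Hoxa3 (0.0389), Hoxb9 (0.00244), Hoxd1 (0.0271) and Hoxd4 (0.00531), and 2360 of all genes (15.3%), so that 4 of 31 is near the background. The 4 high db/+ arrays all lie in the lower series, so the interaction mixes number series with the db/+ division.

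**Figure D4:**
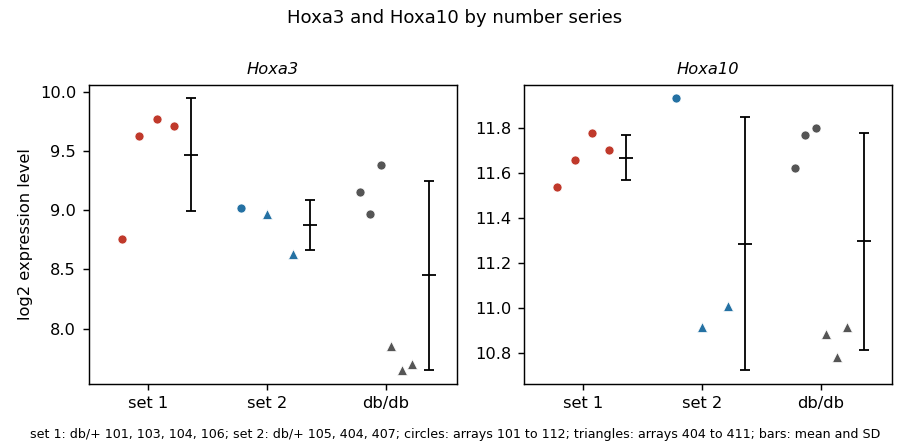
Log2 expression level (vertical axis) of Hoxa3 and Hoxa10 on each array, in the same columns, colours and symbols, with bars for mean and SD. In Hoxa3 the db/db triangles (arrays 409 to 411) lie below all other arrays, and in Hoxa10 the triangles of both genotypes lie below the circles.

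The other Hox genes had no call between the genotypes over all arrays. In Hoxc, which is expressed along the trunk and at lumbar level, Hoxc4 was 9.11 to 9.66 in db/+ and 8.95 to 9.69 in db/db, Hoxc5 6.40 to 7.57 and 6.84 to 7.40, and Hoxc6 6.36 to 7.25 and 6.30 to 6.72. Hoxc9 was 8.89 to 10.09 and 9.11 to 9.87, and Hoxc10, which marks lumbar segments, was 9.11 to 9.82 and 9.73 to 10.17. All 5 genes overlapped between the genotypes. Hoxc10 came nearest to a call (difference 0.33, adjusted p = 0.0622). On leaving out each array in turn it passed only without db/+ 404 (0.0467). Without db/+ 101, 103, 104 and 106 its difference was 0.20 (adjusted p = 0.338).

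In Hoxa, Hoxa2 was 4.98 to 6.59 in db/+ and 5.18 to 6.08 in db/db, Hoxa4 4.91 to 5.97 and 5.37 to 6.16, and Hoxa7 7.43 to 8.20 and 7.36 to 7.96. Hoxa11 was 5.93 to 6.72 and 5.98 to 7.13, and Hoxa13, a gene of the digits and the genital region, 4.25 to 4.82 and 4.36 to 4.86. The differences of these 5 genes lay between -0.16 and 0.23. Hoxb1, a hindbrain gene, stayed at or below 4.31 on every array, Hoxb13, a gene of the tail and prostate, at or below 5.51, Hoxd4 at or below 5.75 and Hoxd12 at or below 5.71. Their genotype differences were 0.21, 0.07, -0.01 and 0.18. Levels of different genes are not ranked here, because probe sets differ in brightness.

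Spread among the db/+ arrays, which includes the gap between the db/+ sets, differed by cluster. The median SD of a gene across the 7 db/+ arrays was 0.389 for the Hox genes and 0.293 over all genes, and 0.865 in Hoxb, 0.577 in Hoxd, 0.341 in Hoxc and 0.329 in Hoxa. Across the 6 db/db arrays it was 0.306 for the Hox genes and 0.224 over all genes. By cluster it was 0.360 in Hoxb, 0.228 in Hoxd, 0.228 in Hoxc and 0.309 in Hoxa, so Hoxd did not stand out there. Without a detection call the dim genes are less certain: 13 of the 31 had a mean below 6.29, and of these 3 fell (Hoxb2, Hoxb6 and Hoxd1) and 1 rose (Hoxc13). Of the 18 brighter genes, 7 fell and 0 rose. Over all genes of any brightness 11.7% fell and 13.4% rose. In a fit of the brighter genes alone the 7 falls were kept, beside 1653 lower and 1919 higher among all genes in it. No share over all genes was taken for the dim ones, so the dim and bright counts are not read against each other.

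Genes that act with or upstream of the Hox genes are read against the shares of all genes that passed the genotype test. These were 25.1% in either direction, 11.7% lower and 13.4% higher in db/db. Counted in either direction, no list here or in the next paragraph exceeded 25.1%. The counts are therefore not read as a result about these genes. Of 8 measured cofactors of the TALE homeodomain class and related factors, 2 fell: Pknox2 by 0.67 (SE 0.10, adjusted p = 0.0005) and Meis2 by 0.41 (SE 0.14, adjusted p = 0.0449). Both proteins bind DNA together with Hox and Pbx factors. Of 16 measured genes of retinoic acid synthesis, breakdown and reception and the Cdx factors, which switch on Hox genes in the embryo, Aldh1a1 rose by 0.57 (SE 0.14, adjusted p = 0.00975) and Aldh1a2, the main embryonic enzyme of retinoic acid synthesis, fell by 1.12 (SE 0.38, adjusted p = 0.0444). Of 19 measured Polycomb and Trithorax genes, which keep Hox genes silent or active, 2 fell: Kmt2a, which maintains Hox expression, by 0.47 (adjusted p = 0.013) and Cbx7, a Polycomb subunit, by 0.36 (adjusted p = 0.0437). Pknox2 and Aldh1a1 kept their calls without the 4 high db/+ arrays (adjusted p = 0.0118 and 0.00805). In that fit the calls were lost for Meis2 (difference -0.49, adjusted p = 0.132), Aldh1a2 (-0.55, 0.383), Kmt2a (-0.33, 0.189) and Cbx7 (-0.45, 0.0884).

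Of 24 measured genes of limb and axial position outside the clusters, 1 rose and 5 fell. Irx3 rose by 1.73 (SE 0.21, adjusted p = 0.00014). Isl1, which is also a neuron marker here, fell by 3.94 (adjusted p = 0.00802), and without the 4 high db/+ arrays its difference was -1.41 (adjusted p = 0.0117). Meox1, a somite gene, fell by 0.51 (adjusted p = 0.0146). The other 3 that fell, Tbx18, Msx1 and Nr2f2, and the hind limb genes Tbx4, at 3.89 to 4.44, and Pitx1, at 5.70 to 6.73, which had no call, lie outside the rule for named genes and were chosen after their values were seen. Nr2f2 lost its call without the 4 high arrays (adjusted p = 0.184). Of 13 measured genes that flank the clusters, 3 rose, Mtx2 beside Hoxd by 0.59 (SE 0.11, adjusted p = 0.00259), Skap2 beside Hoxa by 0.47 (adjusted p = 0.0186) and Snx11 by 0.38 (adjusted p = 0.0386), and 0 fell. When the 4 high arrays were left out the Mtx2 call was kept (0.82, adjusted p = 0.0015) and those of Skap2 (0.30, adjusted p = 0.273) and Snx11 (0.48, adjusted p = 0.0801) were lost.

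Markers of other cells in the nerve were read beside these genotype differences. Over all arrays 11.7% of all genes fell and 13.4% rose. Neuron markers fell in 14 of 17 and myelin and Schwann cell markers in 8 of 11 measured genes, and satellite glia markers in 3 of 7. Adipocyte markers rose in 8 of 12, with a list mean of 11.56 to 12.45 in the first db/+ set, 12.14 to 12.60 in the second and 12.79 to 12.95 in db/db. The mean of the skeletal muscle markers ranged from 6.41 to 12.00 over the arrays, with 0 of 13 called. Of fibroblast and perineurial markers 2 of 13 fell, of endothelial and mural markers 3 of 12 fell and 1 rose, and of macrophage markers 2 of 11 rose. The fibroblast and macrophage counts are near the shares over all genes. Without the 4 high db/+ arrays 5 neuron markers fell and 0 myelin and Schwann cell markers did, and 5 adipocyte markers rose. Without these arrays 6.78% of all genes fell and 6.12% rose. The part of these cell types in the Hox differences was not tested. In a limma fit with the neuron marker mean as a covariate, 0 Hox genes were lower (7.18% of all genes were). Hoxc13 alone was higher (5.99%), by 1.36 (adjusted p = 0.0194). The neuron mean made the db/+ division and was lower on every db/db array than on any db/+ array. For that reason the fit cannot separate neuronal content from genotype. At an unadjusted p below 0.05 that fit counted 4 lower Hox genes (16.2% of all genes) and 2 higher (11.8%).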

How the data were processed

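Sciatic nerve RNA of 13 samples was amplified and biotin-labelled for 1-colour arrays, per the labels. The authors deposited log2 levels from RMA, per the submitters' processing notes. RMA removes background, puts all arrays on a common distribution and combines the probes of a set, which compresses differences of dim genes. Not given in the sources used here are its version, the platform and how probe sets were defined. Of 15479 probe sets, 42 controls were left out. The other 15437 were tested, 14801 of them with a gene symbol. Genotype was fitted with lmFit and eBayes of limma 3.58.1 (R 4.3.3), as a two-sided test. Its p-values were adjusted by Benjamini-Hochberg over all genes, at a threshold of 0.05. The fit was tested on simulated data with an equal spread in both genotypes and no division among the db/+ arrays. That test therefore does not cover genes that follow the division. Figures and promoter searches used Python 3.11.15.

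Members, gene lists and the division of the db/+ arrays were chosen with earlier results of these data known. Named in full were Hox genes past the threshold over all arrays, without db/+ 101, 103, 104 and 106, or in arrays 404 to 411, and those whose db/+ set means differed by 1 or more (15 genes). From the lists of cofactors, upstream genes, position genes and flanking genes, up to 3 called members with the smallest p were named. Cell type markers were given as counts and list means. Some myelin and Schwann cell markers and the satellite glia markers were named outside this rule. The comparison of db/db arrays between number series was added after values were seen. Alternatives covered moderation, normalization, dim genes, array weights, the number series, thresholds, a neuron covariate and leaving out arrays. Sequences come from RefSeq (GRCm38.p6), cut to the bases before each start.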

Additional observations from a re-analysis of the deposited data

Results flagged for a closer look

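In 5 of 62 groups (each Hox gene in db/+ and in db/db), 1 array stood far from the others by Dixon's 95% criterion, and chance gives this in about 1 in 20 groups. Hoxb1 was 4.312 in db/db 110, against 3.544 in the next array. In db/db 112 Hoxb5 was 5.786, against 6.886 in the next array, and Hoxb9 was 6.525, against 7.193. Both calls were lost without db/db 112. Hoxc10 was 9.113 in db/+ 101, against 9.57 in the next array. Hoxd11 was 6.888 in db/+ 106, against 4.793 in the next array.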

How the results depend on the processing

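All 11 Hox calls were kept with an intensity trend, robust moderation, renewed quantile normalization, median centring and array weights. Of the 15437 genes 3867 passed over all arrays, against 6525 with array weights, 1404 in arrays 404 to 411, 1992 without db/+ 101, 103, 104 and 106, 2033 with the neuron marker mean as a covariate, 1728 at an adjusted p of 0.01 and 1217 with a difference of at least 1 as well as an adjusted p below 0.05. The Hox genes higher in db/db numbered 1, against 2 with median centring or array weights (Hoxc10 added), 0 under the filter on dim genes, which leaves Hoxc13 untested, and 1 to 2 on leaving out each array. The Hox genes lower in db/db numbered 10, against 15 with array weights, 6 in arrays 101 to 112, 3 in arrays 404 to 411, 1 without the 4 high db/+ arrays, 2 without them and with the number series as a block (Hoxa9 and Hoxb6), 0 with the neuron covariate, 5 at an adjusted p of 0.01 and 6 with a difference of at least 1. Among all 15437 genes, 1799 were lower over all arrays, 2944 once arrays were weighted and 1109 given the neuron covariate. The lower number series by itself gave 1338 and the higher by itself 643. Dropping the high db/+ arrays gave 1047, or 1605 with the block added. Higher genes numbered 2068 over all arrays, 2546 after median centring and 3581 after weighting. These shifts went the same way as the Hox counts, so a changed Hox count need not be particular to Hox genes. The difference in Hoxd1 changed sign, to 0.68, with the neuron covariate. The smaller subsets have fewer arrays, and the cause of the other changes was not tested. No paired analysis was possible because the groups share no sample number. The number of arrays limits all of these comparisons, and dim genes were not separated from background.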
